A study of Cricetulus griseus with 9 samples.

Results

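The canonical Wnt pathway was followed through 8 of its genes in CHO-K1 cells, an epithelial-like Chinese hamster ovary line widely used to make recombinant proteins. The genes are Axin2, Axin1, Apc, Gsk3b, Ctnnb1, Lef1, Tcf7l2 and Lrp6, taken by mouse Ensembl identifier from a table of 15557 genes, and all 8 identifiers were in it. The symbols came with the list of identifiers, since the deposited files hold identifiers without names. The 3 groups of 3 libraries each held cells given pre-miR-29b-1, cells given pre-miR-29a and cells given anti-miR-29a, by lipid transfection for 48 h. All cells were the same line in the same medium with charcoal-stripped serum, and cells without a miR-29 reagent were not analysed here. A fall with a pre-miR therefore cannot be told apart from a rise with anti-miR-29a. A pre-miR is a synthetic precursor that raises its microRNA, and the anti-miR-29a inhibitor is said by the submitters to block miR-29a and miR-29b-1 alike.

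In cells without a Wnt signal, Axin1 or Axin2 holds Apc and the kinase Gsk3b together in the destruction complex, which marks β-catenin, the product of Ctnnb1, for degradation. When a Wnt ligand binds a Frizzled receptor and the co-receptor Lrp6, the complex is inhibited, β-catenin accumulates and it acts in the nucleus with DNA-binding factors such as Lef1 and Tcf7l2. Axin2 is itself a common transcriptional target of this pathway and serves as a negative feedback regulator. MicroRNAs of the miR-29 family pair through a shared seed with mRNAs, mostly in their 3′ untranslated regions, and reduce their amount or their translation.

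Values are FPKM, which scale the fragments of a gene by the length of its model and by the size of the library, so that levels of different genes are compared per length. The gene models are coding regions, so reads in untranslated regions are outside every value. Low FPKM values fell in steps of 1 read, which put the libraries at 15880000 to 21860000 reads in the unit used for scaling. Library weights were most uneven with pre-miR-29a. Replicate 1 had the lowest weight of all libraries, 0.213, and replicate 2 the next lowest, 0.429, where the highest weight, 3.54, belonged to replicate 3 of the same group. Cells were grown in triplicate, per the labels, but which library came from which culture is not said, so the spread that p-values measure here may be partly technical. The transfections were done in separate experiments, and if each molecule had its own, experiment and group cannot be told apart. In bulk RNA, fewer cells with a transcript and less transcript per cell cannot be told apart.

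The 8 genes were selected on their place in the pathway, with FPKM of these 9 libraries in view, and which values or comparison entered the choice is not recorded. Their differences from anti-miR-29a are therefore described by values and intervals, and counts of these genes past the threshold are no evidence about them. The difference between the pre-miRs was tested on the assumption that it did not enter the choice, which no source used here settles. Of the 8 genes, 7 averaged 1 FPKM or more in the 9 libraries and entered a fit across 9504 genes (limma on log2(FPKM + 1)), while Lef1 did not. Log2 differences refer to that scale, where changes of low genes come out too small, and intervals in brackets are 95% intervals from the fit.

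Levels spanned a wide range. Over the 9 libraries Ctnnb1 averaged 203 FPKM, above 93.3% of all genes in the table, and Axin1 averaged 76.0 FPKM and Gsk3b 45.4 FPKM. Apc averaged 13.6 FPKM, Lrp6 12.0 FPKM, Tcf7l2 4.74 FPKM and Axin2 1.57 FPKM. In each of the 3 groups the order ran from Ctnnb1 through Axin1 and Gsk3b to Tcf7l2, Axin2 and Lef1, and neighbours in that order did not overlap in any group. Apc and Lrp6 exchanged places. Apc stood above Lrp6 in all libraries of either pre-miR, and Lrp6 above Apc in all libraries with anti-miR-29a.

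**Figure D1:**
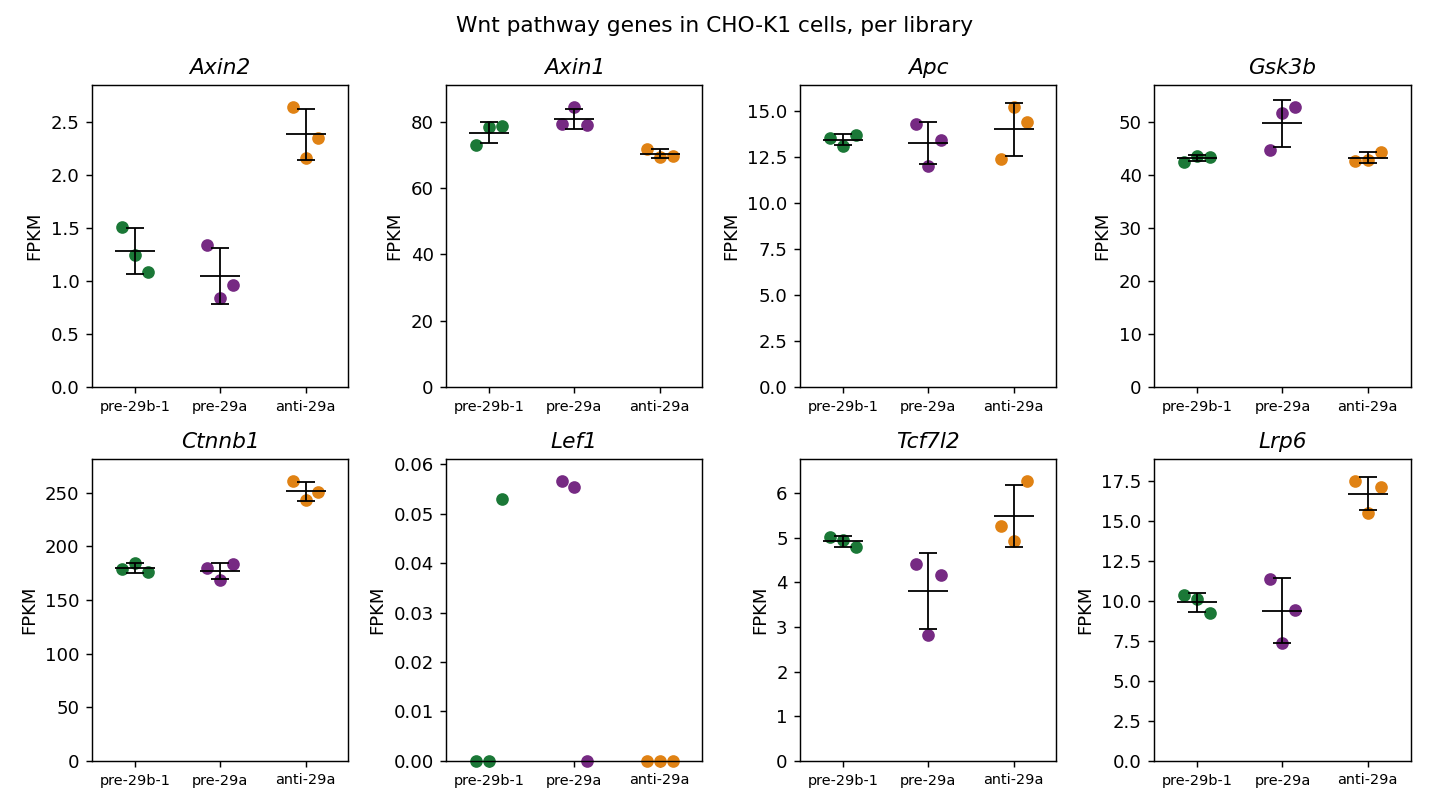
FPKM (y axis, linear from 0, own scale per gene) of the 8 genes in each library (points), by group on the x axis, with the mean and SD as black bars except for Lef1. Axin2, Ctnnb1 and Lrp6 lie lower in all 6 pre-miR libraries than in any anti-miR-29a library, while Axin1 lies higher.

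Axin2 was lower with either pre-miR than with anti-miR-29a. It had 1.51, 1.25 and 1.09 FPKM with pre-miR-29b-1, 1.34, 0.839 and 0.961 FPKM with pre-miR-29a, and 2.64, 2.16 and 2.36 FPKM with anti-miR-29a. Every pre-miR library was thus below every anti-miR-29a library, while the pre-miR groups overlapped each other. The means were 1.28 ± 0.214, 1.05 ± 0.262 and 2.39 ± 0.241 FPKM in the same order (SD, n = 3 each). As plain ratios of mean FPKM, pre-miR-29b-1 stood at 0.538 of anti-miR-29a and pre-miR-29a at 0.439. The log2 difference was -0.57 (SE 0.134, interval -0.87 to -0.27) for pre-miR-29b-1 and -0.73 (SE 0.134, interval -1.03 to -0.43) for pre-miR-29a. For both pre-miRs together it was -0.65 (SE 0.116), and 921 of the 9504 genes had a difference at least as low. These values depend on the pseudocount because Axin2 is low: for both pre-miRs together the log2 difference was -0.99 with 0.1 in place of 1 and -0.26 with 5.

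The Axin2 values rest on few reads, which were recovered as whole numbers. There were 77, 57 and 53 reads in the pre-miR-29b-1 libraries, 61, 39 and 39 in the pre-miR-29a libraries, and 111, 80 and 103 in the anti-miR-29a libraries. The exact 95% Poisson interval of 39 reads runs from 27.7 to 53.3 and that of 80 reads from 63.4 to 99.6, which covers counting error only. Counting alone would give SDs of 0.163 FPKM with pre-miR-29b-1, 0.154 FPKM with pre-miR-29a and 0.242 FPKM with anti-miR-29a, beside observed SDs of 0.214, 0.262 and 0.241 FPKM in the same order. On the hamster assembly CriGri_1.0 the Axin2 model (ENSMUSG00000000142) has 10 exons and 2526 coding bases and lies on scaffold JH000207 from 1874860 to 1899953, minus strand. It is the only model of the gene and shares no exon bases with another gene.

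**Figure D2:**
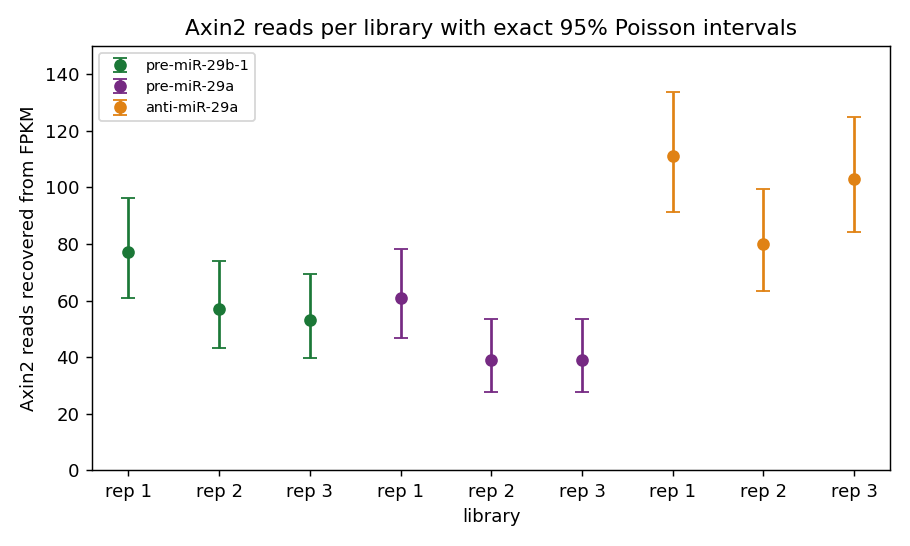
Axin2 reads per library (y axis, linear from 0), recovered from the FPKM values, with exact 95% Poisson intervals as bars and libraries on the x axis coloured by group. The pre-miR libraries hold 39 to 77 reads and the anti-miR-29a libraries 80 to 111, before any correction for depth.

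Axin1, the constitutive Axin scaffold, lay the other way by a small amount. It had 73.1, 78.4 and 78.6 FPKM with pre-miR-29b-1, 79.3, 84.4 and 78.9 FPKM with pre-miR-29a, and 71.9, 69.5 and 69.8 FPKM with anti-miR-29a. No pre-miR library was under any anti-miR-29a library, and the closest values were 73.1 and 71.9 FPKM. The log2 difference was 0.12 (SE 0.0489) for pre-miR-29b-1 and 0.20 (SE 0.0489) for pre-miR-29a. The Axin1 model (ENSMUSG00000024182), with 2604 coding bases in 10 exons, lies on JH000273 from 90181 to 138374, minus strand.

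Within a library the level of Axin2 can be set against that of Axin1 without regard to library scaling. Axin2 amounted to 1.68% ± 0.350 of the Axin1 FPKM in pre-miR-29b-1 libraries, 1.30% ± 0.356 in pre-miR-29a libraries and 3.39% ± 0.279 in anti-miR-29a libraries (SD, n = 3 each). The highest pre-miR library reached 2.07% and the lowest anti-miR-29a library 3.12%. Axin1 thus made up most of the Axin transcript in every library. The level of Axin2 relative to Axin1 was lower in every pre-miR library than in any anti-miR-29a library, while the pre-miR groups overlapped each other. Such a ratio shows unequal change of the pair and does not say which gene changed.

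The co-receptor gene Lrp6 was lower with either pre-miR than with anti-miR-29a. It had 10.4, 10.1 and 9.26 FPKM with pre-miR-29b-1, 11.4, 7.38 and 9.46 FPKM with pre-miR-29a, and 17.5, 15.5 and 17.2 FPKM with anti-miR-29a. The groups with a pre-miR did not overlap with anti-miR-29a. Group means stood at 0.593 of the anti-miR-29a mean with pre-miR-29b-1 and at 0.563 with pre-miR-29a. The log2 differences were -0.70 (SE 0.126, interval -0.98 to -0.42) and -0.78 (SE 0.126, interval -1.07 to -0.50). At 675 to 1476 reads per library, Lrp6 was counted far more precisely than Axin2. Its model (ENSMUSG00000030201) on JH000261, from 1065421 to 1164757 on the minus strand, has 26 exons and 4782 coding bases.

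Ctnnb1, which encodes β-catenin, was the most abundant of the genes and had narrow groups. It had 179, 185 and 177 FPKM with pre-miR-29b-1, 179.5, 169 and 183 FPKM with pre-miR-29a, and 261, 243 and 251 FPKM with anti-miR-29a. Both pre-miR groups were well below anti-miR-29a and overlapped each other. The means were 180.0 ± 4.41, 177 ± 7.46 and 252 ± 8.91 FPKM in the same order (SD, n = 3 each). In log2 terms the differences were -0.48 (SE 0.0492, interval -0.59 to -0.37) and -0.50 (SE 0.0492, interval -0.61 to -0.39). The ratio of Ctnnb1 to Axin1 FPKM was 2.24 to 2.44 in pre-miR-29b-1 libraries, 2.00 to 2.32 in pre-miR-29a libraries and 3.50 to 3.63 in anti-miR-29a libraries. The model (ENSMUSG00000006932), of 14 exons and 2346 coding bases, lies on JH000224 from 1874113 to 1883318, minus strand.

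Of the other parts of the destruction complex, Apc differed little from anti-miR-29a, while Gsk3b lay higher with pre-miR-29a. Apc, the large scaffold that binds β-catenin, had 13.5, 13.1 and 13.7 FPKM with pre-miR-29b-1, 14.3, 12.0 and 13.5 FPKM with pre-miR-29a, and 12.4, 15.2 and 14.4 FPKM with anti-miR-29a. All 3 groups overlapped, and the intervals of the log2 difference ran from -0.24 to 0.14 for pre-miR-29b-1 and from -0.26 to 0.12 for pre-miR-29a. Its model (ENSMUSG00000005871) of 8502 coding bases on JH000323, from 1067149 to 1124169 on the minus strand, is the longest of the 8. The ratio of Lrp6 to Apc FPKM was 0.738 ± 0.0548 in pre-miR-29b-1 libraries, 0.704 ± 0.0916 in pre-miR-29a libraries and 1.21 ± 0.196 in anti-miR-29a libraries (SD, n = 3 each). It was under 1 in all 6 pre-miR libraries and above 1 in all 3 anti-miR-29a libraries.

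Gsk3b, the kinase that phosphorylates β-catenin, had 42.5, 43.7 and 43.4 FPKM with pre-miR-29b-1, 44.7, 51.8 and 52.8 FPKM with pre-miR-29a, and 42.6, 42.9 and 44.4 FPKM with anti-miR-29a. It was higher in all pre-miR-29a libraries than in all others, although replicate 1 exceeded the highest anti-miR-29a library only by 44.7 against 44.4 FPKM. The log2 difference from anti-miR-29a was -0.0041 (SE 0.0636) for pre-miR-29b-1 and 0.19 (SE 0.0636) for pre-miR-29a. Gsk3b (ENSMUSG00000022812) has 2 models with the same exon coordinates on JH000252 from 29061 to 151783, minus strand, and its value is that of the gene as deposited.

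The nuclear factors were the least abundant group together with Axin2. Tcf7l2 had 5.02, 4.94 and 4.79 FPKM with pre-miR-29b-1, 4.42, 2.83 and 4.17 FPKM with pre-miR-29a, and 5.27, 4.93 and 6.27 FPKM with anti-miR-29a. The pre-miR-29a libraries were below all others, while pre-miR-29b-1 overlapped with anti-miR-29a. The log2 difference from anti-miR-29a was -0.13 (SE 0.136, interval -0.43 to 0.18) for pre-miR-29b-1 and -0.44 (SE 0.136, interval -0.75 to -0.14) for pre-miR-29a. A value of 2.83 FPKM stood for 70 reads. The Tcf7l2 model (ENSMUSG00000024985), of 11 exons and 1440 coding bases, lies on JH001773 from 104460 to 221398, minus strand.

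Lef1 was at the limit of detection. It was listed at 0, 0 and 0.0530 FPKM with pre-miR-29b-1, 0.0566, 0.0555 and 0 FPKM with pre-miR-29a, and 0 in all 3 anti-miR-29a libraries. Each value above 0 stood for 1 read, so that 3 reads fell on its 1104 coding bases in all 9 libraries. In the anti-miR-29a libraries 3 reads would stand for 0.177 to 0.209 FPKM. The exact 95% Poisson interval of a count of 0 runs somewhat higher, up to 3.69 reads, and no fold can be given between the groups. The model (ENSMUSG00000027985) lies on JH001166 from 288279 to 384764, plus strand. A mouse protein aligned to the hamster genome need not cover every hamster exon, so the low level holds for this model.

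**Figure D3:**
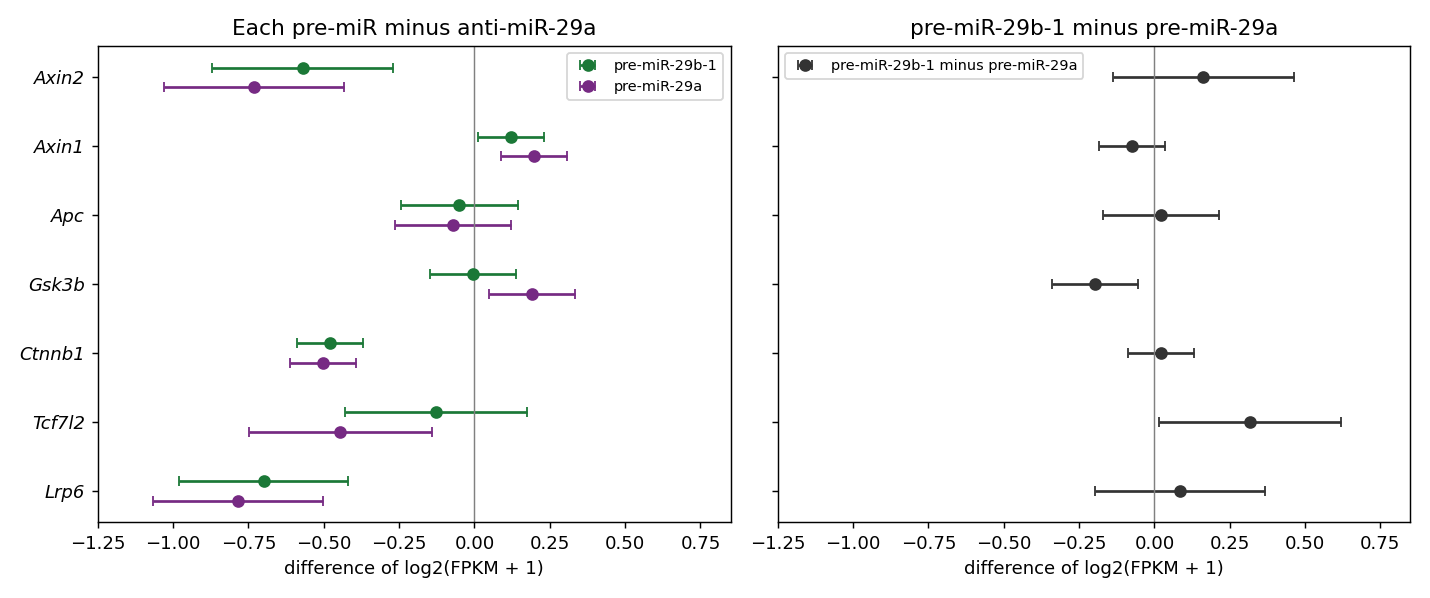
Difference of log2(FPKM + 1) with 95% intervals (x axis) for the 7 genes in the fit (y axis), on the left for each pre-miR minus anti-miR-29a and on the right for pre-miR-29b-1 minus pre-miR-29a. On the left Axin2, Ctnnb1 and Lrp6 lie below 0 with both pre-miRs, and on the right the intervals of Gsk3b and Tcf7l2 leave out 0 before adjustment for 9504 genes.

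Against anti-miR-29a, 3 of the 7 genes passed an adjusted p of 0.05 (limma, Benjamini-Hochberg over all 9504 genes) with pre-miR-29b-1, where 55.2% of all tested genes did. With pre-miR-29a it was 6 of 7, where 58.4% of all tested genes passed, and with both pre-miRs together 4 of 7, where 61.6% passed. Libraries did not overlap for 4 of 7 genes with pre-miR-29b-1, 6 of 7 with pre-miR-29a and 4 of 7 with both, beside 67.6%, 62.2% and 54.6% of all tested genes. The median log2 difference for both pre-miRs was -0.29 over the 7 genes and -0.01 over all tested genes. Nothing is read from these counts, since these comparisons may have entered the choice of genes. With pre-miR-29a the count of 6 falls to 5 when pre-miR-29a replicate 2 or 3 or anti-miR-29a replicate 1 or 2 is left out, each of which ends the call of Gsk3b, or when anti-miR-29a replicate 3 is left out, which ends that of Tcf7l2. The comparisons also share the anti-miR-29a libraries, so that the values for each pre-miR are set side by side and not counted as separate support. With both pre-miRs, Lrp6 had 735 genes at least as low among the 9504, and Ctnnb1 1395. These places, like that of Axin2, are on the log2(FPKM + 1) scale. As plain ratios of mean FPKM, both pre-miRs together stood at 0.488 of anti-miR-29a for Axin2, 0.578 for Lrp6 and 0.710 for Ctnnb1. The order of Axin2 and Lrp6 thus depends on the scale.

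The difference between the pre-miRs was tested in the same fit, under the assumption above on how the genes were chosen. None of the 7 genes passed (limma, adjusted p over 9504 genes), where 0.0105% of all tested genes, a single gene, did, and 2 of the 7 had an unadjusted p under 0.05, as had 1570 of all tested genes. Those were Gsk3b, lower with pre-miR-29b-1 than with pre-miR-29a by a log2 difference of -0.20 (SE 0.0636, limma adjusted p 0.232), and Tcf7l2, higher by 0.32 (SE 0.136, limma adjusted p 0.293). Without pre-miR-29a replicate 2 the Tcf7l2 difference was 0.16. These and Axin1 had no overlap between the pre-miR groups, beside 18.9% of all tested genes. The closest Axin1 values were nearly equal, at 78.6 FPKM with pre-miR-29b-1 and 78.9 FPKM with pre-miR-29a. For Axin2 the log2 difference was 0.16 (limma adjusted p 0.540), with an interval of 0.909-fold to 1.38-fold. For Lrp6 the interval was 0.873-fold to 1.29-fold and for Ctnnb1 0.941-fold to 1.10-fold. Without pre-miR-29a replicate 1, Gsk3b passed with a log2 difference of -0.27 (limma adjusted p 0.0197), while 1370 of all tested genes passed as well.

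Libraries within the pre-miR-29a group spread more than the others for several of these genes. The highest value exceeded the lowest 1.60-fold for Axin2, 1.56-fold for Tcf7l2 and 1.55-fold for Lrp6 with pre-miR-29a, where the spread with pre-miR-29b-1 was 1.39-fold, 1.05-fold and 1.12-fold. With anti-miR-29a it was 1.22-fold, 1.27-fold and 1.13-fold. Replicate 2 was the lowest pre-miR-29a library for Axin2, Lrp6, Tcf7l2, Ctnnb1 and Apc, and the highest for Axin1. Replicate 1 was the highest pre-miR-29a library for Axin2, Lrp6 and Tcf7l2. With all libraries the log2 difference of pre-miR-29a from anti-miR-29a was -0.73 for Axin2, -0.78 for Lrp6 and -0.44 for Tcf7l2. Leaving out replicate 2 put it at -0.66, -0.64 and -0.29 in the same order. Leaving out replicate 1 moved it the other way, to -0.83, -0.92 and -0.54.

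**Figure D4:**
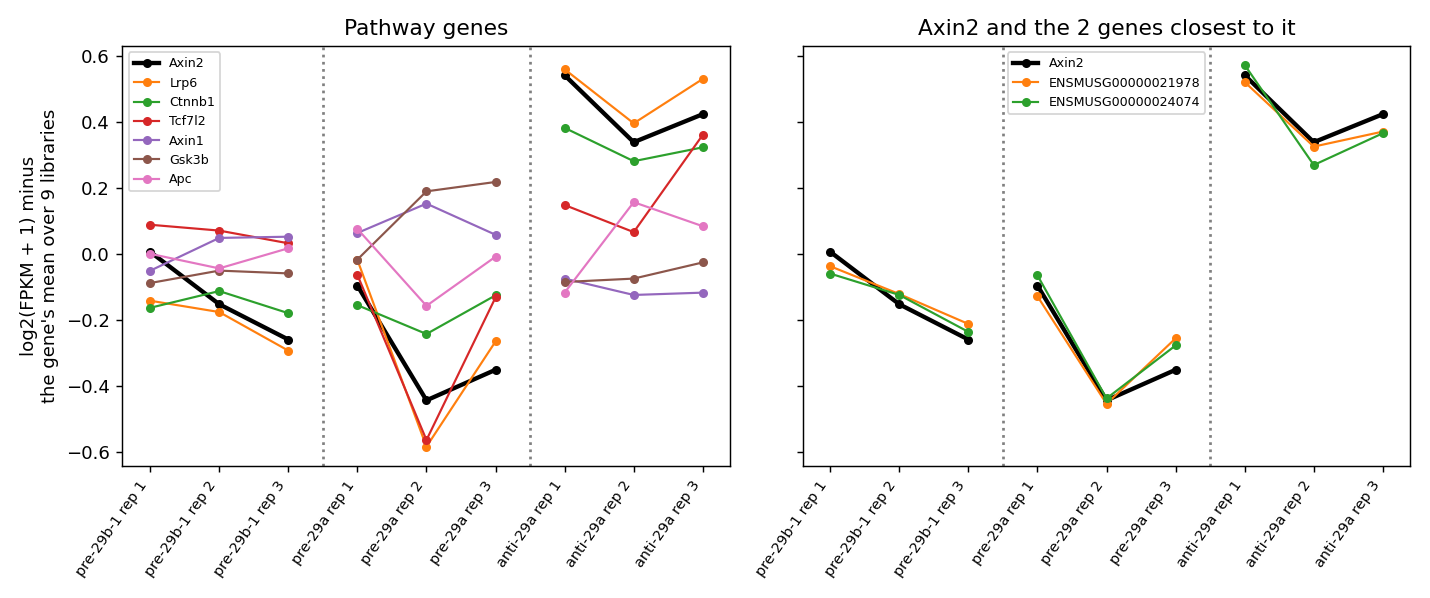
Log2(FPKM + 1) minus the gene's mean over the 9 libraries (y axis) by library (x axis), on the left for the 7 pathway genes in the fit and on the right for Axin2 with the 2 genes closest to it. Lines join libraries of a group only; Lrp6 and Ctnnb1 run near Axin2 with lower values in the pre-miR groups, and Axin1 lies lowest with anti-miR-29a.

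To find the profiles most like Axin2, log2(FPKM + 1) values were centred on each gene's mean over the 9 libraries and compared by their root mean square difference. Among 6356 genes averaging 5 FPKM or more, with 1 model without shared bases, ENSMUSG00000021978 was closest, at 0.0456, and ENSMUSG00000024074 next, at 0.0486. ENSMUSG00000021978 averaged 30.8 FPKM with pre-miR-29b-1, 27.7 FPKM with pre-miR-29a and 45.0 FPKM with anti-miR-29a, and ENSMUSG00000024074 66.8, 61.7 and 98.0 FPKM. No source used here pairs either identifier with a name. Of the pathway genes, Lrp6 was 50th in this order, at 0.0894, and Ctnnb1 291st, at 0.138. Apc was 2637th and Axin1 4358th. Tcf7l2 lay at 0.221, outside the ranking because of its level, and Gsk3b at 0.416, outside it because of its 2 models. The likeness is a description over 9 libraries that fall into 3 groups, and since Axin2 is low, part of its profile is counting error. Axin2 itself averaged 1.28, 1.05 and 2.39 FPKM in the same order of groups. The added 1 shrinks its changes more than those of genes at 5 FPKM or more. A near place in this order is therefore not an equal fold change in FPKM.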

How the data were processed

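Stranded poly(A) libraries were sequenced as single reads, per the labels' protocols. The deposited values are FPKM per gene and library. The authors used TopHat2 2.0.13 and then Cuffnorm, per the submitters' processing notes, and its version, scaling and strand setting are not stated there. The deposited exon coordinates (positions, an other kind of value) come from mouse proteins (Ensembl release 66) placed on CriGri_1.0, per the file headers, and 99.91% of model lengths were multiples of 3. Sequences of the genes and of miR-29 were not used here.

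The genes and lists were chosen with earlier results of these data known. All 8 genes were to be named, with the 2 genes closest to Axin2. A longer Wnt list was not used, as 0 of the 15557 identifiers were found in RefSeq's gene table for CriGri-PICRH-1.0.

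Reads were recovered from FPKM times coding length less 200 bases, the offset at which steps were most often whole in 9160 genes of at least 600 bases with 1 model; of values at or under 5 reads, 99.9% to 100% came within 0.1 of a whole number. Tests used limma 3.58.1 in R 4.3.3 with a variance trend on log2(FPKM + 1), 1 term per group over 9 libraries, genes averaging 1 FPKM or more, two-sided, Benjamini-Hochberg, threshold 0.05. Alternatives changed pseudocount, filter, scaling, library weights and replicate block, and left out each library.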

Additional observations from a re-analysis of the deposited data

How the results depend on the processing

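Against anti-miR-29a, over the alternatives run, 3 or 4 of the 7 genes passed the threshold with pre-miR-29b-1, 5 or 6 with pre-miR-29a and 4 to 6 with both; as these comparisons may have entered the choice of genes, nothing about stability is read from this. With 1 library left out these comparisons gave between 4504 and 5744, 4856 and 5876, and 5088 and 6224 genes. With the other alternatives they gave between 5242 and 6507, 5544 and 6790, and 5851 and 6894 genes, the highest each with array weights. The count of 6 of 7 with both pre-miRs came with array weights, where 6894 of 9504 genes passed. It also came without pre-miR-29a replicate 1, where 6224 passed. Between the pre-miRs 1 gene passed, but 184 with the replicate block, 3627 with array weights and 1 to 1370 without 1 library; of the 7 genes 0 passed, but 1 with array weights and 0 to 1 without 1 library, which was Gsk3b. Signs turned in genes near 0. For Gsk3b, pre-miR-29b-1 minus anti-miR-29a on the log2 scale was 0.0133 when rescaled by median of ratios, 0.0756 after quantile normalization and -0.0157 to 0.0140 without 1 library. For Apc it was 0.0445 (pre-miR-29a) and 0.0211 (both) with quantile normalization, and -0.129 to 0.00788 without 1 library with pre-miR-29b-1. Between the pre-miRs it was -0.0468 with quantile normalization and -0.00300 with array weights for Apc, and -0.00786 with quantile normalization for Lrp6; without 1 library it ranged from -0.0426 to 0.0741 for Apc, -0.0115 to 0.0471 for Ctnnb1 and -0.0620 to 0.221 for Lrp6, and with the same sign from 0.162 to 0.412 for Tcf7l2. The cause was not tested. Deviations from the group mean correlated between libraries with the same number with r of -0.02 to 0.29, over 0.1 in 6 of 9 pairs. The main fit did not use the numbers as pairing despite this, and the replicate block gives the values with them. That block moved Tcf7l2, both pre-miRs against anti-miR-29a, past the threshold at the same log2 difference of -0.29 (limma adjusted p 0.0368). It ended no call of the 7 genes. Depth limits Lef1, at 3 reads in all, and the precision of Axin2.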
